A study of Homo sapiens with 5 samples.

Results

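The heat shock proteins and chaperones described here are the 63 genes, of 12474 in the expression matrix, whose symbol begins with HSPA, HSPB, HSPD, HSPE, HSPH, HSP90, DNAJA, DNAJB or DNAJC, or is TCP1 or CCT followed by a number. Antisense and pseudogene rows, and rows that share the letters only, were left out, 6 rows in all, among them DNAJC9-AS1 and TCP11L1. The genes were measured in the MDA-MB-468 line, derived from a triple-negative breast tumour and amplified for EGFR, by single-cell RNA sequencing with a 3′ Chromium kit. Treated cells had received afatinib at 250 nM, which binds the kinases of EGFR and ERBB2 covalently, and were taken at 3, 6 and 9 days (D3, D6 and D9, 1 library each), and the 2 other libraries held untreated cells of day 0. All cells carried expressed lineage barcodes from a lentiviral library. The study's methods describe freezing of treated cells and thawing before capture, and do not say whether the day 0 cells were frozen. There was no untreated library of D3, D6 or D9, so drug and time in culture cannot be told apart. The labels do not say that the 2 untreated libraries came from separate cultures, so their spread may be technical. The test over all treated days takes its error mainly from the differences among D3, D6 and D9, and the tests by day take it from the untreated libraries alone. The families were HSPA (10 genes), HSPH (1), HSP90 (3), HSPB (4), HSPD and HSPE (2), DNAJA (3), DNAJB (8), DNAJC (24) and CCT with TCP1 (8). The prefix rule also took in HSPB11, an intraflagellar transport protein, HSPBP1, a nucleotide exchange factor of HSP70, and HSPBAP1, which binds HSPB1, so HSPB1 was the sole small heat shock protein of its family.

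Chaperones hold unfolded proteins and help them reach their fold. HSPA proteins (HSP70) bind short exposed stretches in a cycle driven by ATP, DNAJ proteins (HSP40) bring them their clients and start the cycle, and HSPH and other exchange factors reset it. HSP90 completes the folding of kinases and receptors, among them EGFR and ERBB2, HSPD1 with HSPE1 forms the folding chamber of mitochondria, and the CCT subunits with TCP1 form the chamber of the cytosol, which folds actin and tubulin. Many cytosolic and mitochondrial chaperone genes are induced by the heat shock factor HSF1 through heat shock elements, while those of the endoplasmic reticulum (ER) are induced by the unfolded protein response, in part through the ER stress element.

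The libraries held 479, 942 and 1139 cells at D3, D6 and D9, against 478 and 1063 untreated cells, with 14517579 to 28148379 counts each, and 1 cell barcode was shared between libraries (D3 and D6). Mitochondrially encoded genes took 17.2%, 16.0% and 8.82% of counts at D3, D6 and D9, against 7.25% and 7.80% in untreated cells. Ribosomal protein genes took 13.2% to 14.2% in treated libraries and 18.4% to 18.8% in untreated ones. Cells called G1 made up 30.0% to 30.6% of treated and 20.3% to 20.9% of untreated libraries. Of the epithelial markers, EPCAM, KRT8, KRT18, KRT19, EGFR and CDH1 were all detected in every library, COL1A1 lay between 2.22 and 7.67 CPM, and the other 8 immune, fibroblast and endothelial markers were not among the genes of the matrix. The matrix had been adjusted for batch by the authors, who report 2 captures of day 0 cells, sequenced on different flow cells. The agreement of the untreated libraries may thus be closer than that of independent libraries. The adjustment left a trace, in that many genes never took the value 2 in any cell of a library. Untreated replicate 1 and D3 had 4532 such genes in common of 8316, and untreated replicates 1 and 2 had 0 of 7278. That untreated replicate 2 was adjusted as a set of its own is inferred from this trace, since the labels do not give the batches. Levels below are CPM (counts scaled to a fixed library total, itself adjusted with TMM factors). Since each molecule gives 1 tag near its 3′ end, levels of different genes were compared without division by length.

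Short stretches of promoter show which regulatory letters some of these genes carry. They are RefSeq sequence of GRCh38.p14, read 5′ to 3′ on the gene's strand within the 250 bases before the start, in lower case with the motif in capitals. The first lines are members with a heat shock element, chosen because they differed in how they moved with afatinib, and the last lines are the members that hold an ER stress element (HSP90AB1, HSPA8 and HSP90B1 each hold a further match that is not shown).
HSPB1 (chr7:76302466-76302523, plus strand): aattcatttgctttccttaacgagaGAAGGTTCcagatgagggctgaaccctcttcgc
HSPD1 (chr2:197500048-197500090, minus strand): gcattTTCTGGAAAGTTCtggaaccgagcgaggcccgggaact
HSP90AB1 (chr6:44247806-44247868, plus strand): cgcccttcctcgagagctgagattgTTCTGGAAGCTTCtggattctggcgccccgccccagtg
HSPA8 (chr11:123062154-123062216, minus strand): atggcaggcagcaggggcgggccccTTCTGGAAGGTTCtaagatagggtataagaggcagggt
HSPA1A (chr6:31815412-31815469, plus strand): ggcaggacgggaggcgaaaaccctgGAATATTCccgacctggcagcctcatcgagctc
HSPA5 (chr9:125241366-125241434, minus strand): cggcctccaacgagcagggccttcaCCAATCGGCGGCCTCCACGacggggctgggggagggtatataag
HSP90B1 (chr12:103930191-103930259, plus strand): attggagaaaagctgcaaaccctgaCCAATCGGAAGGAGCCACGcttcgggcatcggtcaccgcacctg

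Promoters were found for 57 of the 63 members. The core GAANNTTC, which reads the same on both strands, was present in 12 of the 57 members (21.1%), against 7.05% of 27305 genes with a promoter in the same table (5.78% of its 35116 promoters). The core TTCNNGAA, also its own reverse, was present in 8 members (14.0%) against 8.12% of genes (6.62% of promoters). The 2 cores overlap in a row of 3 repeats, in which GAA and TTC alternate with 2 free bases between them (either strand), a pattern added after the motif counts were seen. It was held by DNAJB6, HSP90AA1, HSP90AB1, HSPA8 and HSPD1, against 0.557% of genes (0.441% of promoters). The ER stress element (CCAAT and CCACG with 9 free bases between, either strand) was held by HSPA5 and HSP90B1, against 0.0916% of genes (0.0740% of promoters). A match describes the letters and says nothing of binding in these cells.

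With afatinib, more members fell than rose. Of the 63 members, all of which passed the filter on low counts, 16 fell and 4 rose over the 3 treated days against the 2 untreated libraries (edgeR quasi-likelihood test, Benjamini-Hochberg adjusted p under 0.05 over 12145 genes). Of all genes tested, 10.1% fell and 13.1% rose. The median log2 fold change of the members was -0.18, beside 0.05 for all genes. All treated libraries lay below both untreated libraries for 30 members and above them for 10, where 26% and 31.7% of all genes did so. The members that fell were HSPB1, HSPE1, DNAJC15, HSPD1, CCT6A, CCT2, DNAJA1, CCT4, DNAJC30, CCT8, HSPH1, CCT3, DNAJC19, DNAJB6, DNAJC8 and DNAJB1, and those that rose were HSPA13, DNAJB12, DNAJC27 and DNAJC22. The number of calls moved with the libraries used, for the members as for all genes. Without untreated replicate 1 or 2 HSPB1 alone was called, where 1.60% and 1.14% of all genes fell. Without D3, 3 members fell and 4 rose, where 7.46% and 8.69% of all genes did, and without D6 3 fell and 1 rose, where 5.45% and 6.58% did. Without D9, 34 fell and 13 rose, where 27.3% and 28.9% of all genes did. Within G1 cells, 3 members fell (HSPB1, HSPE1 and DNAJC15) and 2 rose (DNAJB12 and HSPA13), where 6.99% and 7.12% of all genes did. Within cells of under 10% mitochondrial counts, of which D3 had 85 and D6 188, 10 fell and 6 rose, where 8.44% and 9.24% of all genes did. With D9 as the only treated library, where the spread comes from the untreated pair alone, 30 fell and 15 rose, and 28.5% and 26.8% of all genes did.

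HSPB1 (HSP27), a small heat shock protein that keeps unfolded proteins soluble and binds the actin cytoskeleton, fell most of all members. Its level was 73.8, 38.6 and 40.7 CPM at D3, D6 and D9, against 229 and 243 CPM in untreated cells. No treated library came near an untreated one, and D6 and D9 were lower than D3. The log2 fold change was -2.21 ± 0.28 (SE), with an adjusted p of 0.00337 by edgeR's quasi-likelihood test, and HSPB1 was called under each of the alternatives run, in the fit over all days, with log2 fold changes of -2.74 to -1.71. In cells of under 10% mitochondrial counts the fold at D3 was smaller, at -0.88 against -1.68 in all cells, while at D6 and D9 it was -2.15 and -2.60. The part of the mitochondrial share in the D3 value was not tested further. The other genes under the HSPB prefix were not called. HSPB11 had 83.4, 91.3 and 131 CPM at D3, D6 and D9, against 129 and 128 CPM untreated, HSPBP1 57.7, 59.5 and 73.4 CPM against 68.6 and 73.7 CPM, and HSPBAP1 stayed under 10 CPM in all libraries.

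**Figure D1:**
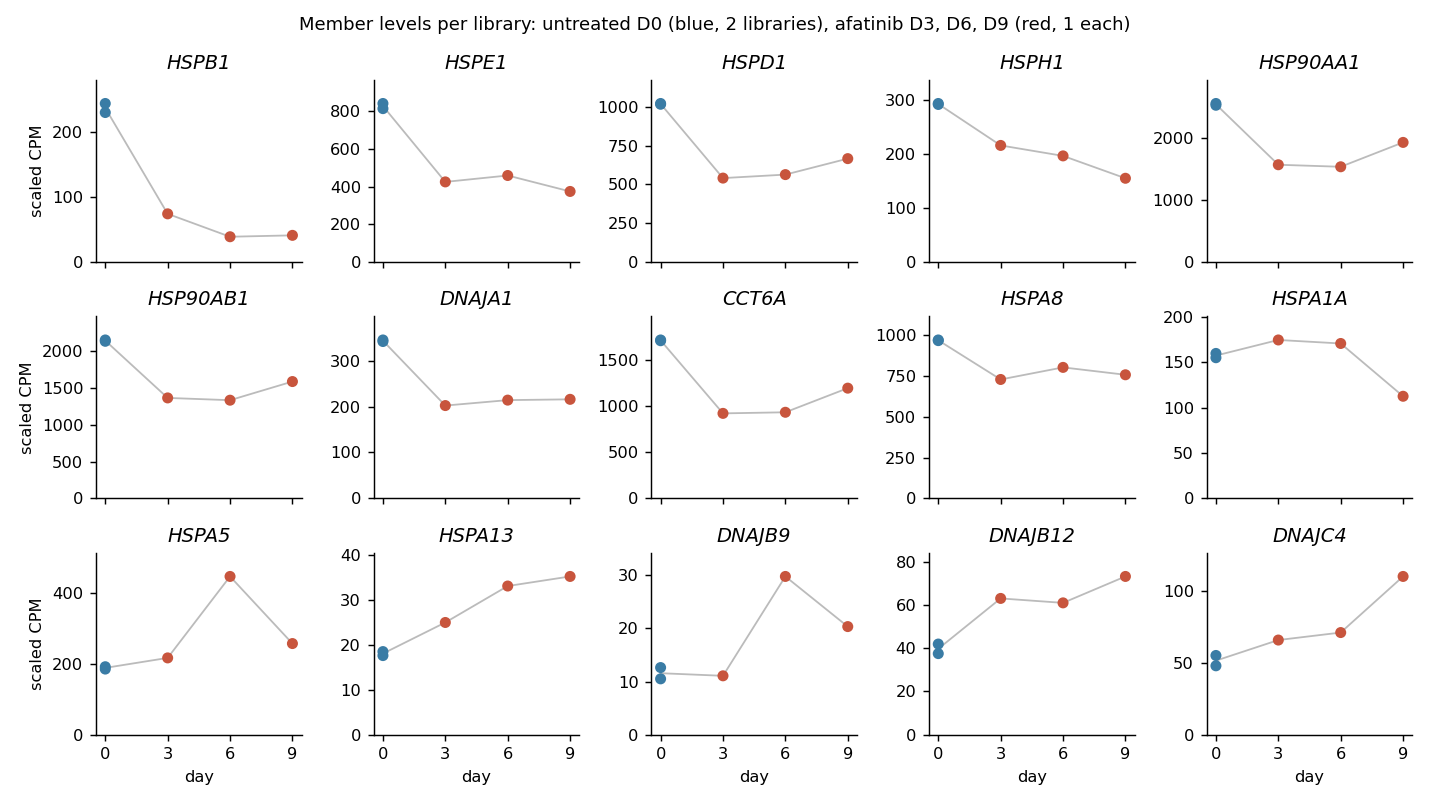
Level of 15 members in each library, in TMM-scaled CPM (vertical axes start at 0), by day of afatinib; blue points are the 2 untreated libraries at day 0, red points the treated libraries, and the grey line joins the untreated mean to the treated values. HSPB1 lay at 38.6 to 73.8 CPM in treated and 229 to 243 CPM in untreated libraries, while HSPA5 and DNAJB9 were highest at D6.

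The mitochondrial chaperonin fell in both of its parts. HSPE1, the lid (HSP10), had 425, 459 and 374 CPM at D3, D6 and D9, against 842 and 814 CPM in untreated cells (log2 fold change -0.98 ± 0.18, adjusted p = 0.0109 by edgeR). HSPD1, the barrel (HSP60), had 541, 563 and 667 CPM, against 1023 and 1018 CPM (-0.79 ± 0.19, adjusted p = 0.0243 by edgeR). The 2 genes lie head to head on chromosome 2 and share the promoter region in which the HSPD1 element printed above lies. HSPE1 itself is not among the members counted above as holding a heat shock element. The values parted at D9, where HSPE1 was at its lowest and HSPD1 at its highest treated level. In cells of under 10% mitochondrial counts HSPE1 was at -0.70 and no longer called (adjusted p = 0.0609, edgeR), HSPD1 at -0.63 and called. The reverse held in cells thinned to 5000 UMIs, in G1 cells, without D3 and without D6, where HSPE1 was called and HSPD1 was not. Neither was called in a linear trend over days. HSPA9, the HSP70 of mitochondria, was not lower, with 176, 192 and 227 CPM at D3, D6 and D9 against 175 and 184 CPM. Of the 9 mitochondrial members tested, 5 fell and none rose by edgeR (1 rose at an unadjusted p under 0.05, and 1 by DESeq2), with a median log2 fold change of -0.61. Of all genes, 10.1% fell and 13.1% rose by edgeR. In cells of under 10% mitochondrial counts, HSPD1 and DNAJC15 alone of these members fell and DNAJC4 rose, where 8.44% and 9.24% of all genes did. HSPE1, DNAJC19 and DNAJC30 were not called there.

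The HSP90 genes of the cytosol were lower in each treated library but were not called. HSP90AA1, the inducible form, had 1563, 1531 and 1923 CPM at D3, D6 and D9, against 2549.7 and 2521 CPM untreated (log2 fold change -0.60 ± 0.22, adjusted p = 0.0836, edgeR). HSP90AB1, the constitutive form, had 1364, 1333 and 1587 CPM, against 2134 and 2152 CPM (-0.59 ± 0.21, adjusted p = 0.0775, edgeR). DESeq2 called a fall of both, and both were least low at D9. HSP90B1 (GRP94), the HSP90 of the ER, had 325, 428 and 373 CPM against 376 and 384 CPM, values that overlap. HSPH1 (HSP110), an exchange factor of HSP70, was lower at each later day and fell over all, with 215, 196 and 155 CPM against 291 and 293 CPM (-0.63 ± 0.19, adjusted p = 0.0458, edgeR), and was at -0.44 and not called in cells of under 10% mitochondrial counts.

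Of the 10 HSP70 genes, 1 rose (HSPA13, given with the ER members) and none fell by edgeR (1 fell at an unadjusted p under 0.05, and 2 by DESeq2). Of all genes, 13.1% rose and 10.1% fell by edgeR. HSPA8 (HSC70), the constitutive HSP70 of the cytosol and the most abundant of its family, had 729, 803 and 758 CPM at D3, D6 and D9, against 967 and 971 CPM, and was not called (adjusted p = 0.204, edgeR). HSPA4, an exchange factor of the HSP110 type, had 65.6, 68.2 and 73.7 CPM against 90.1 and 97.8 CPM and narrowly missed the threshold (adjusted p = 0.0558, edgeR). HSPA1A, the HSP70 gene best known for its induction by heat, had 175, 171 and 113 CPM against 155 and 160.0 CPM, thus above untreated at D3 and D6 and below it at D9. HSPA1B, whose coding sequence is nearly identical, had 45.8, 50.9 and 39.8 CPM against 43.9 and 44.7 CPM. The split of counts between these 2 genes is uncertain, since reads from stretches that both share could not be placed. How many of the 3′ tags fall in such stretches was not tested. HSPA14, a ribosome-bound HSP70, had 45.5, 43.7 and 69.8 CPM against 51.4 and 56.9 CPM, which overlap.

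Of the 9 members listed for the ER, 1 rose, where 13.1% of all genes rose, and HSPA5 and HSP90B1 carry the stress elements printed above. HSPA13, an HSP70 of the ER, rose, with 24.9, 33.0 and 35.1 CPM at D3, D6 and D9 against 17.6 and 18.5 CPM in untreated cells (log2 fold change 0.79 ± 0.18, adjusted p = 0.0197 by edgeR). HSPA5 (BiP), the main HSP70 of the ER, had 217, 446 and 257 CPM against 185 and 192 CPM, and thus lay above untreated at each day. It was not called over all days (0.70 ± 0.31, adjusted p = 0.134, edgeR). Without D9, when calls were more frequent among all genes, it was called at 0.81, and without D6 it was at 0.32 and not called. DNAJB9 (ERdj4), a cochaperone of HSPA5, had 11.1, 29.7 and 20.3 CPM against 12.6 and 10.5 CPM, and DNAJB11 (ERdj3) had 54.7, 95.8 and 84.5 CPM against 57.7 and 63.6 CPM. DNAJC3 (p58IPK) was above untreated at each day, with 91.9, 115 and 106 CPM against 71.9 and 74.4 CPM (0.51 ± 0.16, adjusted p = 0.0510, edgeR). DNAJC1 was also above untreated at each day, with 96.6, 107 and 131 CPM against 79.0 and 84.9 CPM. It was not called (0.45 ± 0.18, adjusted p = 0.102, edgeR). DNAJB11, DNAJC1, DNAJC3, DNAJC10 and DNAJC25 were named after their values were seen. DNAJC25 was below untreated in each treated library, with 9.73, 10.3 and 9.59 CPM against 13.0 and 13.6 CPM, and DNAJC10 had 61.3, 60.2 and 58.9 CPM against 60.6 and 56.0 CPM. Of the 9, none fell by edgeR (1 fell at an unadjusted p under 0.05, none by DESeq2), where 10.1% of all genes fell. At every day 4 lay above both untreated libraries and 1 below, and 4 overlapped, where 31.7% of all genes lay above and 26% below. The median log2 fold change was 0.45, beside 0.05 for all genes. DNAJB12, of the ER membrane and given below, was not on that list. Their summed level was 892, 1325 and 1076 CPM at D3, D6 and D9, against 874 and 897 CPM.

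Among the J proteins, 1 of 8 DNAJB and 2 of 24 DNAJC genes rose, where 13.1% of all genes did. A fall was called for 1 of 3 DNAJA, 2 of 8 DNAJB and 4 of 24 DNAJC genes, where 10.1% of all genes fell. DNAJA1, the most abundant of them and a partner of HSP70, had 202, 214 and 215.9 CPM at D3, D6 and D9, against 345 and 342 CPM (log2 fold change -0.71 ± 0.15, adjusted p = 0.0181 by edgeR). DNAJA2 had 111, 109.9 and 144.1 CPM against 175 and 180.1 CPM (adjusted p = 0.0596, edgeR). DNAJB1, the classic heat-inducible HSP40, had 83.5, 101 and 89.0 CPM against 126 and 133 CPM, and DNAJB6, which keeps polyglutamine proteins from aggregating, had 81.9, 92.5 and 95.8 CPM against 128 and 129 CPM. Both fell, by 0.50 and 0.51 on the log2 scale, close to the threshold (adjusted p = 0.0485 and 0.0414, edgeR). DNAJB12, an ER membrane J protein that recruits HSC70 to degrade membrane proteins, rose, with 63.0, 60.9 and 73.2 CPM against 41.9 and 37.5 CPM (0.73 ± 0.15, adjusted p = 0.0152, edgeR).

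The DNAJC genes that fell included 3 of mitochondria. DNAJC15 (MCJ), which dampens respiratory complex I, had 73.2, 77.1 and 92.5 CPM at D3, D6 and D9, against 149 and 153 CPM (log2 fold change -0.90 ± 0.16, adjusted p = 0.00921 by edgeR). DNAJC19, a part of the inner membrane import motor, had 44.5, 57.2 and 59.4 CPM against 79.0 and 85.0 CPM, and DNAJC30 had 10.6, 9.43 and 11.3 CPM against 17.5 and 15.4 CPM. DNAJC19 and DNAJC30 were not called in cells of under 10% mitochondrial counts, where DNAJC15 was. DNAJC8, a splicing factor with a J domain, fell too, with 101, 99.1 and 88.7 CPM against 142 and 133 CPM. DNAJC27, a GTPase with a J domain, rose, with 8.25, 9.56 and 9.06 CPM against 5.78 and 5.33 CPM (0.69 ± 0.17, adjusted p = 0.0267, edgeR), and DNAJC22, named after its values were seen, rose with 3.48, 3.21 and 5.14 CPM against 1.94 and 1.99 CPM. DNAJC4 was highest at D9, with 66.1, 71.3 and 110.5 CPM against 55.3 and 48.1 CPM. It was not called in the fit over all days, but was in cells of under 10% mitochondrial counts. DNAJC9, a histone chaperone and the most abundant DNAJC gene, had 143.6, 151 and 191 CPM against 168 and 173 CPM, with overlapping groups. DNAJC14 had 9.02, 7.55 and 6.82 CPM against 5.46 and 6.91 CPM.

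All 8 subunits of the cytosolic chaperonin were lower in every treated than in either untreated library, where 26% of all genes were. CCT6A, CCT2, CCT4, CCT8 and CCT3 fell, where 10.1% of all genes did, and CCT5, CCT7 and TCP1 were not called. The log2 fold changes of the 8 ran between -0.75 and -0.31. None of the 5 calls was kept in G1 cells, in cells thinned to 5000 UMIs, in a linear trend over days, or without D3 or D6. Their folds stayed below 0 under every alternative run, within -0.89 to -0.58 for CCT6A, -0.88 to -0.52 for CCT2, -0.83 to -0.47 for CCT4, -0.80 to -0.44 for CCT8 and -0.69 to -0.50 for CCT3. CCT6A, by far the most abundant, had 919, 931 and 1192 CPM at D3, D6 and D9, against 1714 and 1706 CPM (adjusted p = 0.0404, edgeR). CCT2 had 142, 134 and 184 CPM against 251 and 254 CPM, CCT4 174, 173 and 229 CPM against 309.6 and 309 CPM, and CCT8 153, 152 and 205 CPM against 267 and 266 CPM. CCT3 had 378, 353 and 393 CPM against 579 and 572 CPM. The subunits that missed the threshold were closest to untreated at D9: CCT5 had 431, 449 and 592 CPM against 658 and 640.1 CPM, CCT7 218, 232 and 275 CPM against 314 and 316 CPM, and TCP1 169, 159 and 184 CPM against 209 and 215 CPM. Although the complex holds each subunit once per ring, the untreated levels spanned 209 to 1714 CPM. CCT6A lies 840 kb from EGFR, the gene amplified in this line, on chromosome 7. The part of gene copy number in its level was not tested. The summed level was 2585, 2584 and 3255 CPM at D3, D6 and D9, against 4302 and 4278 CPM.

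The calls by day used a fold minimum, since each day has 1 library and the spread comes from the untreated pair alone (an absolute log2 fold change of 1 or more with an adjusted p under 0.05 by edgeR, 1 residual degree of freedom). At D3 no member rose past the fold minimum (none at an unadjusted p under 0.05 with that minimum either) and HSPB1 and DNAJC15 fell, where 6.29% of all genes rose and 4.13% fell. The median log2 fold change of the members was -0.25, -0.31 and -0.20 at D3, D6 and D9. That of all genes was 0.04, 0.01 and 0.06. DNAJB12 was higher at D3, at 0.67 on the log2 scale, without reaching the minimum. At D6 HSPA5, DNAJB9 and DNAJC18 rose and HSPB1 fell, where 6.74% and 5.71% of all genes did. At D9 DNAJC4 and DNAJC22 rose and HSPB1 and HSPE1 fell, where 5.07% and 7.21% of all genes did. DNAJC18, named after its values were seen, had 2.71, 3.96 and 3.14 CPM at D3, D6 and D9, against 1.94 and 1.73 CPM. The 3 comparisons share the untreated libraries. Between days, HSPA5 and DNAJB9 were the only members past both limits, each higher at D6 than at D3, where 1.24% of all genes changed, and no member passed them at D9 against D6 or at D9 against D3, where 4.22% and 5.18% of all genes did. The HSPA5 and DNAJB9 calls at D6 were kept in cells of under 10% mitochondrial counts, with log2 fold changes of 1.07 and 1.48, and the DNAJC15 and HSPB1 calls at D3 were not, at -0.58 and -0.88. In G1 cells the rises of DNAJC4 and DNAJC22 at D9 and of DNAJC18 at D6 were not kept, at 0.87 (adjusted p = 1.32e-09), 0.70 (adjusted p = 0.287) and 0.66 (adjusted p = 0.461) by edgeR. There DNAJB12 and HSPA13 passed both limits at D9 instead.

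**Figure D2:**
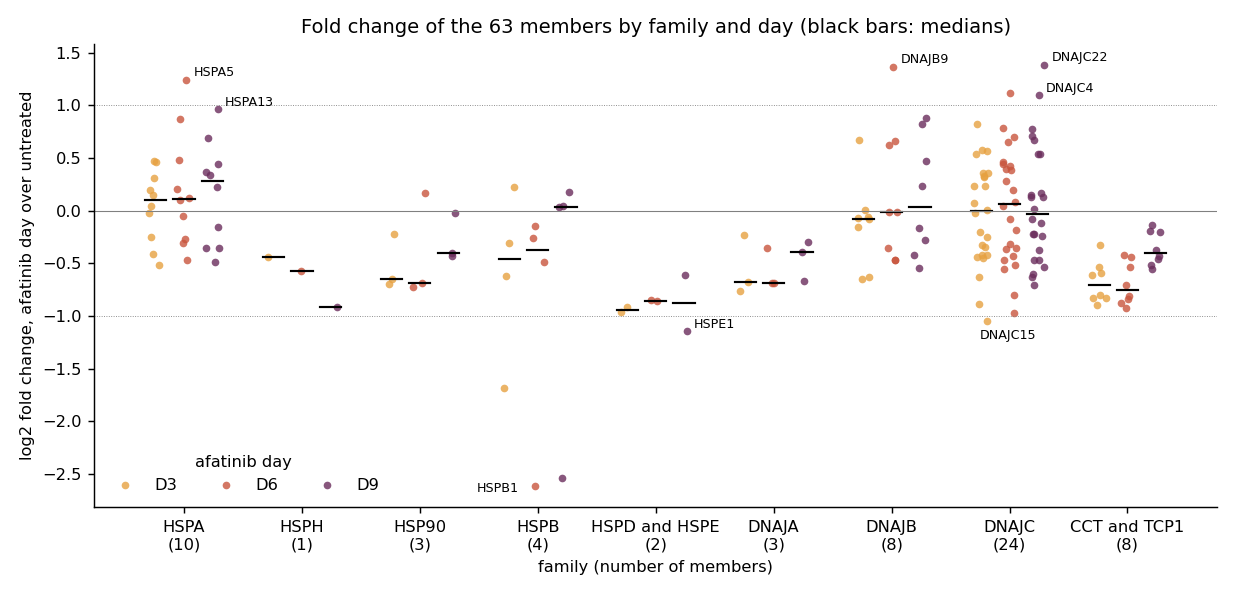
Log2 fold change of each of the 63 members at D3, D6 and D9 of afatinib over untreated cells, by family; points are genes, black bars the family medians and dotted lines the fold minimum of 1. All CCT and TCP1 points lie below 0 at each day, HSPB1 stands apart at the bottom, and HSPA5 and DNAJB9 pass the upper line at D6.

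The levels were also summed by family, as a description with no test. The summed HSP90 level was 3253, 3292 and 3883 CPM at D3, D6 and D9, against 5059.7 and 5057 CPM, and DNAJA had 344, 352 and 388 CPM against 558 and 557 CPM. Both, like CCT with TCP1, were lowest at D3 and D6 and nearer to untreated at D9. HSPD with HSPE stayed low throughout, with 966, 1022 and 1041 CPM against 1864 and 1832 CPM. The HSPA sum, with 1507, 1832 and 1601 CPM against 1707 and 1748 CPM, was above both untreated libraries at D6 only, the day on which HSPA5 was highest. The DNAJB sum was 353, 434 and 425 CPM against 428 and 436 CPM, and that of DNAJC 1108, 1165 and 1287 CPM against 1289 and 1305 CPM. Over all members the sum was 10556, 11074 and 12287 CPM, against 15935 and 15958 CPM. The low sums of D3 and D6 coincide with the high mitochondrial share of these 2 libraries, whose part in the sums was not tested.

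**Figure D3:**
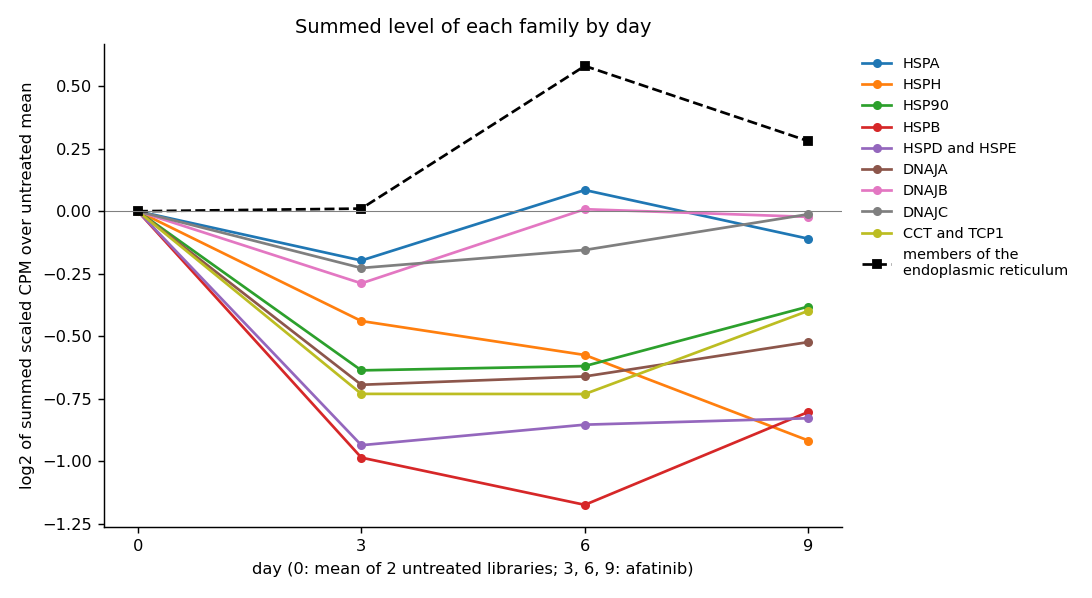
Summed TMM-scaled CPM of each family at D3, D6 and D9 of afatinib, as log2 over the mean of the 2 untreated libraries (day 0, set to 0); the dashed line sums the 9 members of the endoplasmic reticulum. The HSP90, DNAJA and CCT with TCP1 sums are lowest at D3 and D6 and nearer to 0 at D9, and the dashed line peaks at D6, at 0.58.

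The same members were then read cell by cell. With every cell thinned to 5000 UMIs, which no cell fell short of, HSPB1 had a UMI in 20.9% (95% exact binomial interval 17.3 to 24.8), 12.0% (9.99 to 14.2) and 14.7% (12.7 to 16.9) of cells at D3, D6 and D9, against 49.8% (45.2 to 54.4) and 57.4% (54.3 to 60.4) of untreated cells. Intervals cover counting error only. Unthinned, the shares were 49.1%, 28.1% and 33.3% against 88.9% and 88.3%. Cells with 3 or more HSPB1 UMIs made up 1.46%, 0.955% and 1.05% at D3, D6 and D9, against 11.9% and 13.2%. HSPE1 had a UMI in 78.1%, 83.8% and 83.3% of thinned cells, against 93.7% and 93.8%, and DNAJC15 in 25.3%, 27.0% and 34.4%, against 49.4% and 48.5%. HSPA5 had a UMI in 67.8%, 86.3% and 70.8%, against 55.2% and 51.0%, and 3 or more UMIs in 12.1%, 43.4% and 18.3%, against 7.95% and 10.5%. HSPA1A had a UMI in 51.8%, 52.4% and 39.3% of cells, against 47.7% and 47.1%. The level that free RNA gives cells that do not express these genes could not be set, as the matrix holds a single line.

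**Figure D4:**
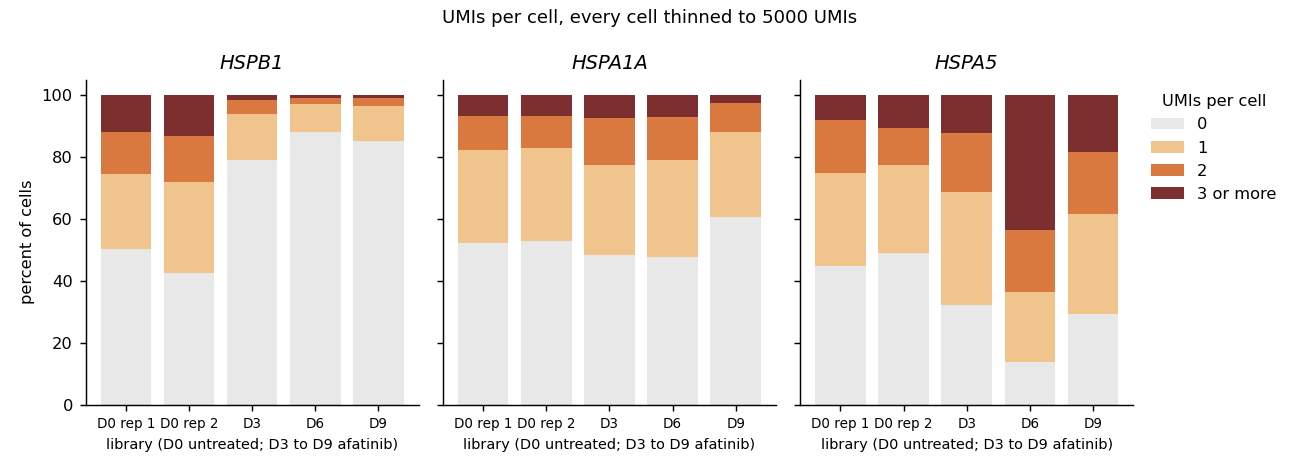
Percent of cells with 0, 1, 2 or 3 and more UMIs of HSPB1, HSPA1A and HSPA5 in each library, every cell thinned to 5000 UMIs; D0 libraries are untreated and D3 to D9 had afatinib. Cells with 3 or more HSPA5 UMIs reach 43.4% at D6, and cells without an HSPB1 UMI make up 79.1% to 88.0% of treated and 42.6% to 50.2% of untreated libraries.

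Summed over all 63 members, a cell held a median of 52, 52 and 62 UMIs of 5000 at D3, D6 and D9, against 73 and 72 in untreated cells. For the 14 members listed as classic targets of HSF1 the medians were 26, 25 and 30, against 39 and 39. Their 90th percentiles at D3 and D6, 40 and 37 UMIs, were near the untreated median. For the 8 CCT and TCP1 members the medians were 13, 12 and 16, against 19 and 19. For the 9 ER members they were 4, 6 and 5, against 4 and 4.

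**Figure D5:**
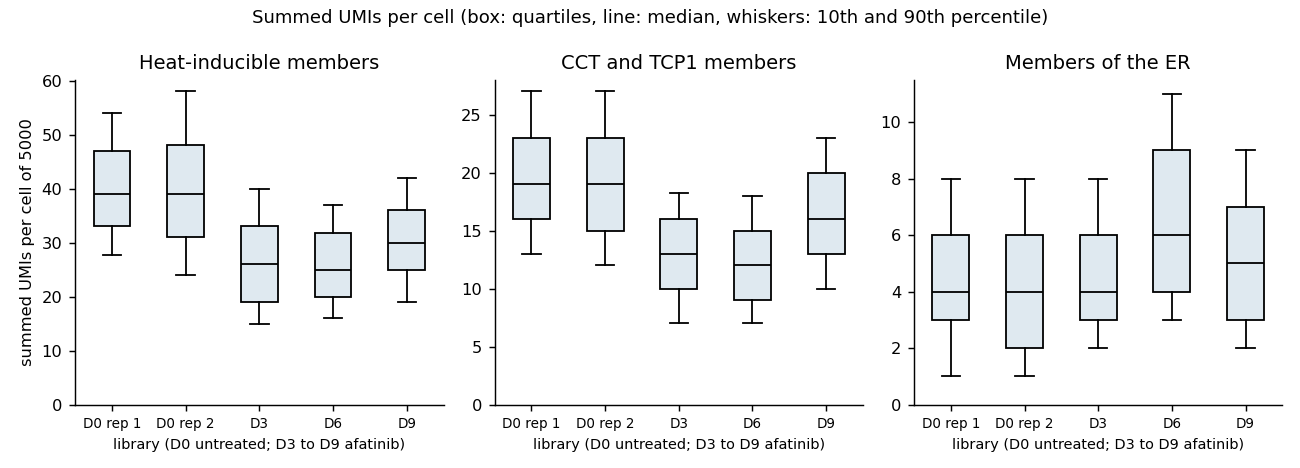
Summed UMIs per cell, of 5000, for the 14 members listed as heat-inducible, the 8 CCT and TCP1 members and the 9 members of the endoplasmic reticulum (ER), in each library; boxes are quartiles, lines medians and whiskers the 10th and 90th percentiles over cells. Treated medians are 25 to 30 against 39 untreated in the first panel and 12 to 16 against 19 in the second, and in the third the median is 6 at D6 and 4 in untreated cells.

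Correlations of members from cell to cell were weak within libraries. Over the 45 members with a UMI in at least 10% of thinned cells of each library, the mean Pearson correlation of log UMIs over the 5 libraries had a median of 0.02 over 990 pairs, and 47 pairs reached 0.1. The highest was that of HSP90AA1 with HSP90AB1, with r of 0.34, 0.27 and 0.22 at D3, D6 and D9, against 0.25 and 0.47 in untreated cells. HSPD1 with HSP90AB1 averaged 0.22 and HSP90AB1 with CCT6A 0.22. The 66 pairs of classic HSF1 targets had a median of 0.06 with 20 at 0.1 or more, the 28 pairs of CCT and TCP1 a median of 0.06 with 4, and the 15 pairs of ER members a median of 0.03 with 1. Cells of a library share its depth and cell cycle mix, and such weak values in sparse counts are given as a description.

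Genes that work with these chaperones were read from lists drawn up for the purpose. Beside the counts below, 10.1% of all genes fell and 13.1% rose in the same fit. Of the 14 HSP90 cochaperones, 5 fell (CHORDC1, PPID, FKBP4, SUGT1 and TTC4) and none rose by edgeR (none at an unadjusted p under 0.05 or by DESeq2), with a median log2 fold change of -0.44. CHORDC1, which binds HSP90, had 84.8, 77.1 and 60.9 CPM at D3, D6 and D9, against 166 and 169.8 CPM (-1.18 ± 0.18, adjusted p = 0.0054, edgeR). Of the 11 exchange factors and cochaperones of HSP70, BAG2, BAG3 and GRPEL1 fell and none rose by edgeR (none at an unadjusted p under 0.05 or by DESeq2). BAG3, a partner of HSPB proteins in autophagy, had 31.9, 29.0 and 27.8 CPM against 51.4 and 44.7 CPM. All 6 subunits of prefoldin, which hands actin and tubulin to CCT, were lower in each treated library than in either untreated one, where 26% of all genes were. PFDN4 and PFDN6 fell, at -0.92 and -0.84. HSF1 itself was higher in each treated library without passing the test, with 109 to 129 CPM against 84.2 and 92.0 CPM (0.44 ± 0.15, adjusted p = 0.0748, edgeR), and HSBP1, a negative regulator of HSF1, fell (-0.78). Of the 14 classic HSF1 targets among the members, 7 fell and none rose by edgeR (none at an unadjusted p under 0.05 or by DESeq2).

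Genes of the unfolded protein response rose, 7 of 10, with none that fell by edgeR (none at an unadjusted p under 0.05 or by DESeq2), and a median log2 fold change of 0.80. Beside this list and those below, 13.1% of all genes rose and 10.1% fell in the same fit. HERPUD1, a target of the response in ER degradation, had 98.1, 307 and 176 CPM at D3, D6 and D9, against 49.7 and 46.6 CPM (2.01 ± 0.43, adjusted p = 0.0174, edgeR), with its peak on the same day as HSPA5 and DNAJB9. DDIT3 (CHOP) rose by 1.22, TRIB3 by 1.16 and EIF2AK3 (PERK) by 0.91 on the log2 scale. Of the 16 ER folding enzymes and lectin chaperones, none rose and none fell by edgeR (2 rose at an unadjusted p under 0.05 and 2 by DESeq2), with a median of 0.10. Among mitochondrial proteases and import proteins, LONP1, the matrix protease, rose, with 90.4, 107 and 94.1 CPM against 40.5 and 39.5 CPM (1.28 ± 0.15), and PAM16, of the import motor, fell (-0.92), while 9 of 11 were not called. Of 11 immediate early genes known to respond to dissociation of cells, FOS, FOSB and JUN rose by 1.22, 1.61 and 0.86 and EGR1 fell by 0.88 on the log2 scale. At D6, the day on which HSPA5 and DNAJB9 were highest, ATF3 and IER3 of this list were highest too, both named after their values were seen. ATF3 had 14.1, 37.2 and 10.3 CPM at D3, D6 and D9, against 12.4 and 12.1 CPM, and IER3 838, 2013 and 1283 CPM against 984 and 962 CPM. Both passed the fold minimum at D6, with log2 fold changes of 1.60 and 1.05. The libraries thus also differed in genes that handling can move, whose part in the member values was not tested.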

How the data were processed

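MDA-MB-468 cells were profiled in 5 libraries (3 afatinib, 2 untreated). Per the study's methods and the submitters' processing notes, the authors used Cell Ranger 6.1.2 on GRCh38, dropped cells with under 5000 UMIs, doublets and cells of outlying mitochondrial share, filtered out lowly expressed genes and adjusted batch effects with ComBat-seq. Values deposited are expected counts: UMI counts after that adjustment, all of them whole. The other columns deposited by the authors hold cell names, gene identifiers and symbols. The prefix of a cell's name gave its library.

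Counts were summed per library and tested with edgeR 4.0.16 (R 4.3.3; filterByExpr, TMM factors, quasi-likelihood test, Benjamini-Hochberg over 12145 genes), afatinib against untreated (common biological coefficient of variation 0.171) and with the day as a factor. Library depth was 14517579 to 28148379 counts. The tests assume plain counts, and the adjustment may make p-values too small. Scripts were tested on simulated counts drawn without batch adjustment or differences between treated days, which cannot check the p-values of the adjusted counts. Named genes were members of at least 20 CPM outside the DNAJ families; of each DNAJ family, the called members of at least 5 CPM (at most 6 a direction) and the most abundant pair; the 3 largest rises and falls per day; and up to 4 called genes of each list. All members and lists were chosen with earlier results of these data known. Alternatives were RLE factors, DESeq2 1.42.0, no filter, no mitochondrial or ribosomal protein genes, thinning, cell subsets, a linear trend and leaving out each library. Cells with fewer UMIs and other doublet calls were not examined.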

Additional observations from a re-analysis of the deposited data

Results flagged for a closer look

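Between treated days, 2 members differed by more than the fold minimum in a test of the difference itself (edgeR, day as a factor, 1 library a day). At D6 against D3, DNAJB9 was higher by 1.42 on the log2 scale (adjusted p = 5.34e-14) and HSPA5 by 1.04 (adjusted p = 4.71e-40). Each rests on a single library per day, with the spread taken from the untreated pair.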

How the results depend on the processing

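Over the 3 treated days 4 members rose and 16 fell, against 4 and 19 with RLE factors, 3 and 21 without mitochondrial and ribosomal protein genes, 4 and 16 without the filter and 6 and 22 with DESeq2. The counts moved by more than 1.5 times in cells thinned to 5000 UMIs (1 rose, 4 fell), in G1 cells (2 rose, 3 fell), in a linear trend over days (2 rose, 1 fell), in cells under 10% mitochondrial (6 rose, 10 fell) and, chosen after seeing the data, with D9 as the only treated library (15 rose, 30 fell). Leaving out each library in turn gave 0 to 13 that rose and 1 to 34 that fell. At D3, where 0 rose and 2 fell, 4 fell without mitochondrial and ribosomal protein genes and 5 in thinned cells, and in cells under 10% mitochondrial 1 rose and 0 fell. At D6, where 1 fell, 2 fell without mitochondrial and ribosomal protein genes and 2 in thinned cells. The causes were not tested. Named members near 0 changed sign, none of them called in the fit of all days. HSPA1A was at 0.23 in G1 cells, and at -0.15 to 0.13 over the left-out libraries. HSPA1B was at -0.031 without mitochondrial and ribosomal protein genes, -0.050 in thinned cells, -0.045 in the trend, -0.21 with D9 alone, and -0.065 to 0.13 over left-out libraries. HSPA14 was at 0.062 under 10% mitochondrial, 0.23 in the trend, 0.31 with D9 alone, and -0.28 to 0.081 over left-out libraries. DNAJC9 was at 0.095 in the trend, 0.10 with D9 alone, and -0.21 to 0.0029 over left-out libraries. HSP90B1 was at 0.13 under 10% mitochondrial, 0.062 in the trend, and -0.14 to 0.076 over left-out libraries. HSPB1 was called under each alternative over all days, but not at D3 in cells under 10% mitochondrial. No paired analysis was possible because only the untreated group has 2 libraries.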
